A study of Mus musculus with 8 samples.

Results

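Dntt and 7 genes of antigen receptor rearrangement and late thymocyte life were examined in naive CD4 T cells in which Satb1 was targeted. The genes were taken by symbol and were Dntt, Rag1, Rag2, Arpp21, Sox4, Cd24a, Ccr9 and Themis. Of these 8 genes, 6 were among the 16418 genes of the deposited normalized table. Rag1 and Rag2 were only among the 53465 genes of the count table, with 0 reads in every library. The set was selected on measured values, since it was proposed with the KO against WT fold change of Dntt in these libraries known. Fold changes of these 8 genes are therefore given as a description, with no test.

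Poly(A) RNA came from spleen and lymph node cells sorted for a naive phenotype (CD3+CD4+CD25-, CD44 low or absent), from mice of the genotype Satb1fl/fl x CD4-CreERT2wt/+. All mice thus carried floxed Satb1 alleles and a tamoxifen-activated Cre driven by CD4 sequences. The 4 KO libraries (Sample_2907_KO, Sample_2908_KO, Sample_2909_KO and Sample_2910_KO) came from mice given tamoxifen, and the 4 WT libraries (Sample_2911_WT, Sample_2913_WT, Sample_2914_WT and Sample_2915_WT) from untreated mice, so that the agent and the intended deletion cannot be told apart. The labels give neither the animals' ages, nor the time after tamoxifen, nor whether each library was 1 animal, and p-values measure only the spread between these libraries. KO libraries held 7544075 to 9253620 counted reads and WT libraries 5227758 to 21998174.

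As background, T cells assemble their receptor genes in the thymus. The RAG1 and RAG2 proteins form the recombinase that cuts the gene segments, end joining factors repair the breaks, and terminal deoxynucleotidyl transferase (TdT), the product of Dntt, adds bases without a template at the junctions. Rearrangement ends before cells leave the thymus. Recent thymic emigrants are the youngest naive T cells of the periphery, which lose CD24 and gain maturation markers such as Qa-2, Ly6C and the IL-7 receptor. SATB1 is a DNA-binding protein that organises chromatin and is abundant in thymocytes.

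The libraries carried the markers of their label. All 12 naive CD4 T cell markers had reads, and their summed level was 8983 to 9673 CPM (read counts scaled to library size with TMM factors) in KO and 9059 to 9508 CPM in WT. Satb1 was at 909.9 ± 87.2 CPM (KO) against 1033 ± 41.4 CPM (WT; SD, n = 4 per group). Its log2 fold change was -0.18 (SE 0.059), short of the threshold of an adjusted p under 0.05 (edgeR quasi-likelihood test, adjusted p = 0.0582). It passed in 6 of 18 alternatives: with limma-voom (0.0404), without TMM (0.0364), with no count filter (0.0191), with limma-trend (0.03), with libraries thinned to equal depth (0.0418) and without Sample_2908_KO (0.00152). KO and WT are therefore used as the labels of the libraries. Counts over the whole gene do not show whether the floxed exons were lost.

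Dntt was lower in KO than in WT in every library. The KO libraries had 5.86, 4.60, 3.35 and 5.36 CPM (in the order listed above), from 48, 42, 31 and 40 reads. The WT libraries had 17.2, 14.1, 13.7 and 11.8 CPM, from 89, 78, 308 and 136 reads. The groups did not overlap, and the lowest WT library stood 2.01 times above the highest KO library. The means were 4.79 ± 1.09 CPM (KO) against 14.2 ± 2.24 CPM (WT; SD, n = 4 per group). The log2 fold change was -1.55 (SE 0.189, 95% interval -1.94 to -1.17), which left KO at 34.1% of the WT level. In bulk RNA, fewer Dntt-expressing cells and less Dntt RNA per cell cannot be told apart.

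**Figure D1:**
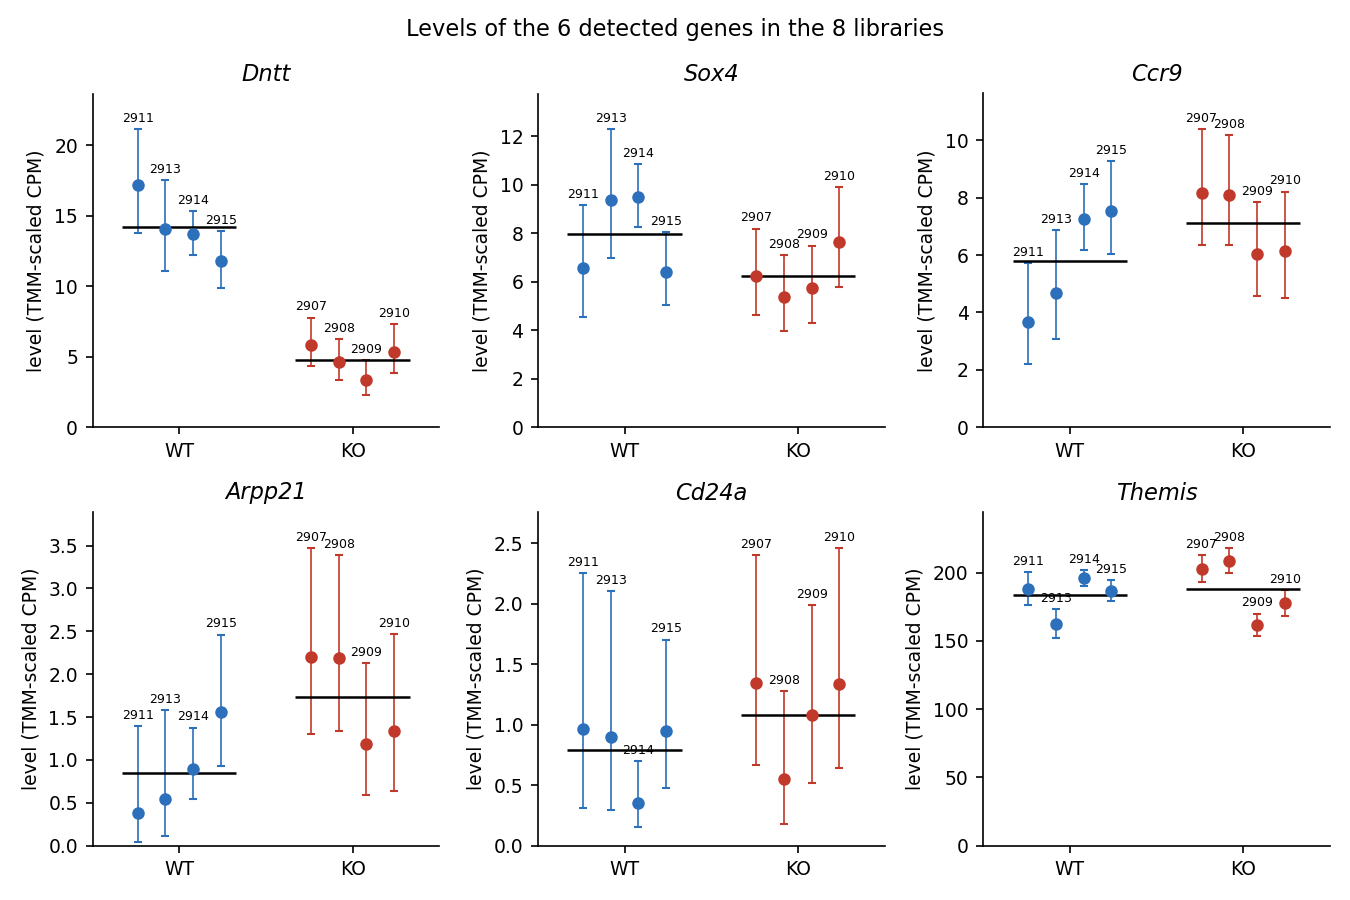
Levels in TMM-scaled CPM (vertical axis, from 0) of the 6 detected genes in the 4 WT and 4 KO libraries, each point labelled with its library number. Vertical bars are 95% Poisson intervals of the read count, horizontal lines are group means. The KO points of Dntt, 3.35 to 5.86 CPM, lie below all WT points, 11.8 to 17.2 CPM, while the groups overlap for the other 5 genes.

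Among the 11772 genes tested, Dntt had the 16th lowest log2 fold change. Dntt was the only 1 of the 5 tested members past the edgeR threshold, where 6.39% of all tested genes were called and 2.41% were called lower. Libraries of KO and WT did not overlap for Dntt alone among the 6 detected members, and for 11.1% of all tested genes. Because Dntt was known to fall when the set was drawn up, these counts describe the set and support nothing further. Over leaving out each library in turn, the log2 fold change of Dntt ranged from -1.67 to -1.41.

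**Figure D2:**
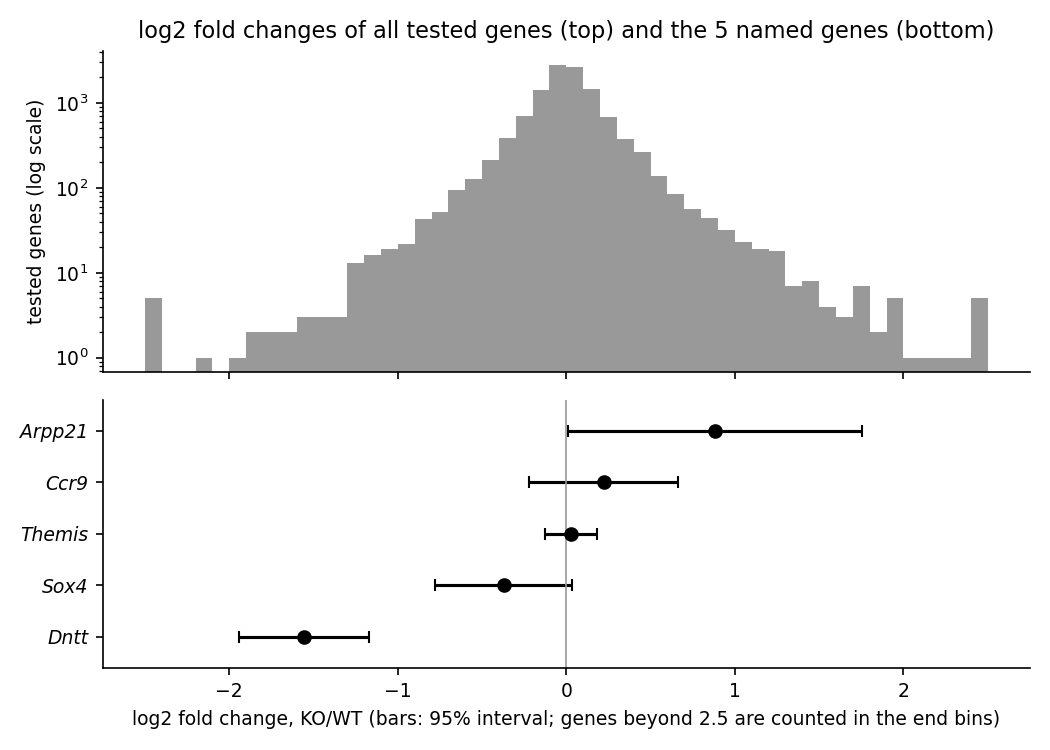
Upper panel: number of tested genes (log scale) by log2 fold change, KO relative to WT, with genes beyond 2.5 in either direction counted in the end bins. Lower panel: estimates of the 5 tested members with 95% intervals on the same axis. Dntt lies at -1.55, in the lower tail, and the interval of Themis, -0.13 to 0.18, surrounds 0.

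Rag1 and Rag2, which encode the recombinase, had 0 reads in all 8 libraries. With 34256257 reads pooled in KO and 44311234 in WT, a count of 0 allows up to 0.0882 CPM in KO and 0.0671 CPM in WT (3 reads over the group, counting error only). No fold change can be given. The genes lie side by side on chromosome 2 (mm10, Rag1 at 101638282 to 101649501 on the minus strand and Rag2 at 101624718 to 101632529 on the plus strand). Both lie inside B230118H07Rik, whose exons share 80 bases with those of Rag1 and 208 bases with those of Rag2. B230118H07Rik had 26 reads in KO and 41 in WT. Dntt transcripts were thus present without detectable Rag1 or Rag2 transcripts in both groups.

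The upstream sequences of these 3 rearrangement genes are shown because Dntt was read in every library and the recombinase genes in none. Each is the 250 bases before the RefSeq start site (GRCm38.p6), 5′ to 3′ on the gene's strand. Capitals mark matches to the E-box CANNTG, the core bound by E proteins of the E2A and HEB type. The windows are chr19:41029025-41029274 on the plus strand for Dntt, chr2:101649533-101649782 on the minus strand for Rag1 and chr2:101624462-101624711 on the plus strand for Rag2.
Dntt: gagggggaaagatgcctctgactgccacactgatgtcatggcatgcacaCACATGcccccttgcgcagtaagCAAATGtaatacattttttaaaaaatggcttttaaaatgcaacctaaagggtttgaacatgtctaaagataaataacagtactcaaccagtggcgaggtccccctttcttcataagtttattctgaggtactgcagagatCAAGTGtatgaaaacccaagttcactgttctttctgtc
Rag1: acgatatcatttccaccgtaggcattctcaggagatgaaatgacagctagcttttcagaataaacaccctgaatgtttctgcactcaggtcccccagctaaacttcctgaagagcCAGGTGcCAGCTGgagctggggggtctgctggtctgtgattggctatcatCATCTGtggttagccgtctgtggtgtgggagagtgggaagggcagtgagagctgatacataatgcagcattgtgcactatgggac
Rag2: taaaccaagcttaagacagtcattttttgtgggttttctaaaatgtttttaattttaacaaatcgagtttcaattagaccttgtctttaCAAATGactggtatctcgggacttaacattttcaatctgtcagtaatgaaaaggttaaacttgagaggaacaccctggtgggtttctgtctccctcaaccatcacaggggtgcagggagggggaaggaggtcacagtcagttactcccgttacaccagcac

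The Dntt window held 3 E-box matches, starting 201, 178 and 38 bases before the start site, that of Rag1 3, at 135, 128 and 85 bases, and that of Rag2 1, at 161 bases. An E-box match is common, being present in 66.2% of 32851 RefSeq windows of the same length. The motif TGTGGT, the core of RUNX factors, searched on both strands, had 2 matches in Rag1 and none in Dntt or Rag2, against a match in 14.0% of all windows. No window of the 3 held the TATA box letters TATAAA on either strand, which 12.4% of all windows did. The ETS core GGAA, on both strands, had 1 match in Dntt, 3 in Rag1 and 2 in Rag2, and 93.4% of all windows held it. By base composition, A and T made up 58.4% of the Dntt window and 58.8% of the Rag2 window, above the upper quartile of all windows (54.8%, median 47.6%). For Rag1 the share was 49.2%. These matches describe letters in the windows and were not tested as binding sites.

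Sox4 (chromosome 13, 28948919 to 28953713, minus strand), a high mobility group transcription factor of early lymphocytes and thymocytes, overlapped between the groups. KO libraries had 6.23, 5.37, 5.73 and 7.63 CPM in the order given above, and WT libraries 6.56, 9.37, 9.49 and 6.41 CPM. Sample_2913_WT and Sample_2914_WT stood above all KO libraries, and Sample_2911_WT and Sample_2915_WT within the KO range. Means were 6.24 ± 0.99 CPM (KO) against 7.96 ± 1.71 CPM (WT; SD, n = 4 per group). The log2 fold change of -0.37 (SE 0.199, 95% interval -0.78 to 0.04) was short of the threshold and lay at the 5.99th percentile of all tested genes. Of the 4795 exon bases of Sox4, 2616 are shared with Gm26735, a noncoding gene on the opposite strand that had 0 reads.

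Ccr9 (chromosome 9, 123678439 to 123784330, plus strand), the receptor for the thymic and intestinal chemokine CCL25, also overlapped. KO libraries had 8.18, 8.11, 6.05 and 6.16 CPM, and WT libraries 3.67, 4.69, 7.27 and 7.53 CPM. Sample_2911_WT and Sample_2913_WT lay below all KO libraries, and Sample_2914_WT and Sample_2915_WT within the KO range. The means were 7.13 ± 1.18 CPM (KO) against 5.79 ± 1.91 CPM (WT; SD, n = 4 per group), with a log2 fold change of 0.22 (SE 0.217, 95% interval -0.22 to 0.66). Of its 10260 exon bases, 1932 are shared with Gm17021 on the opposite strand, which had 10 reads in all. Its ligand gene Ccl25 stood at 9.95 ± 0.91 CPM (KO) against 10.1 ± 1.81 CPM (WT), a log2 difference of -0.01 (adjusted p = 0.989 by edgeR).

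Arpp21 (chromosome 9, 112065091 to 112235938, minus strand), a cyclic AMP regulated phosphoprotein with an RNA-binding R3H domain, is known for its expression in immature thymocytes. It had few reads: 18, 20, 11 and 10 in the KO libraries and 2, 3, 20 and 18 in the WT libraries. These were 2.2, 2.19, 1.19 and 1.34 CPM in KO and 0.39, 0.54, 0.89 and 1.56 CPM in WT. The 3 lowest values were WT libraries, while Sample_2915_WT lay within the KO range. Means were 1.73 ± 0.54 CPM (KO) against 0.84 ± 0.52 CPM (WT; SD, n = 4 per group). The log2 fold change of 0.88 (SE 0.427, 95% interval 0.01 to 1.75) was short of the threshold, which is adjusted over all tested genes, and fell to 0.58 without Sample_2911_WT and Sample_2914_WT together. In both Ccr9 and Arpp21 the WT libraries took the same order, Sample_2911_WT lowest, then Sample_2913_WT, Sample_2914_WT and Sample_2915_WT. Sample_2911_WT and Sample_2913_WT were also the shallowest of the 8, and the part of depth in that order was not tested. With every library thinned to 5227758 reads, Ccr9 had a log2 fold change of 0.21, and Arpp21 no longer passed the filter on low counts.

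Cd24a (chromosome 10, 43578284 to 43584265, plus strand), the glycoprotein that thymocytes and the youngest emigrants carry and that mature naive T cells lose, was close to the limit of detection. It had 11, 5, 10 and 10 reads in the KO libraries and 5, 5, 8 and 11 in the WT libraries, or 1.34, 0.55, 1.08 and 1.34 CPM in KO and 0.97, 0.90, 0.36 and 0.95 CPM in WT. The groups overlapped. It did not pass the filter on low counts and was not tested. Pooled over libraries, 36 KO reads against 29 WT reads put KO at 1.63 times WT (95% interval 0.973 to 2.76, counting error only). Without Sample_2914_WT, the deepest library and the lowest in Cd24a, the pool put KO at 1.1 times WT (0.638 to 2.02), and without other single libraries at 1.49 to 1.95 times. The means over libraries were 1.08 ± 0.37 CPM (KO) against 0.79 ± 0.29 CPM (WT; SD, n = 4 per group).

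Themis (chromosome 10, 28668360 to 28883818, plus strand), a signalling adaptor needed for positive selection of thymocytes, was the most abundant of the 8, and the groups overlapped. KO libraries had 202.7, 208.6, 161.6 and 177.6 CPM, and WT libraries 188.0, 162.6, 196.1 and 186.8 CPM. Means were 187.6 ± 22.0 CPM (KO) against 183.4 ± 14.5 CPM (WT; SD, n = 4 per group). The log2 fold change was 0.03 (SE 0.074) with a 95% interval of -0.13 to 0.18, the narrowest of the 5 tested members, from 14817 reads in all. Its sign turned, to between -0.03 and -0.01, when Sample_2907_KO, Sample_2908_KO or Sample_2913_WT was left out.

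Per kb of annotated exon, the levels ran in the same order in both groups: Themis, Dntt, Sox4, Ccr9, Cd24a and Arpp21. In WT, Themis was at 15.7 ± 1.24 CPM per kb, Dntt at 6.19 ± 0.98 and Sox4 at 1.66 ± 0.36 (SD, n = 4). The lowest WT value of Dntt, 5.14 CPM per kb, was above the highest of Sox4, 1.98. In KO, Dntt was at 2.09 ± 0.48 CPM per kb and Sox4 at 1.30 ± 0.21, and their libraries overlapped, since the lowest Dntt value was 1.46 and the highest Sox4 value 1.59. Ccr9 was at 0.56 ± 0.19 CPM per kb in WT and 0.69 ± 0.12 in KO, and Cd24a at 0.31 ± 0.11 in WT and 0.42 ± 0.14 in KO. Those neighbours overlapped in WT but not in KO. Arpp21 came last, at 0.048 ± 0.030 CPM per kb in WT and 0.099 ± 0.031 in KO, on an annotated exon length of 17428 bases.

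**Figure D3:**
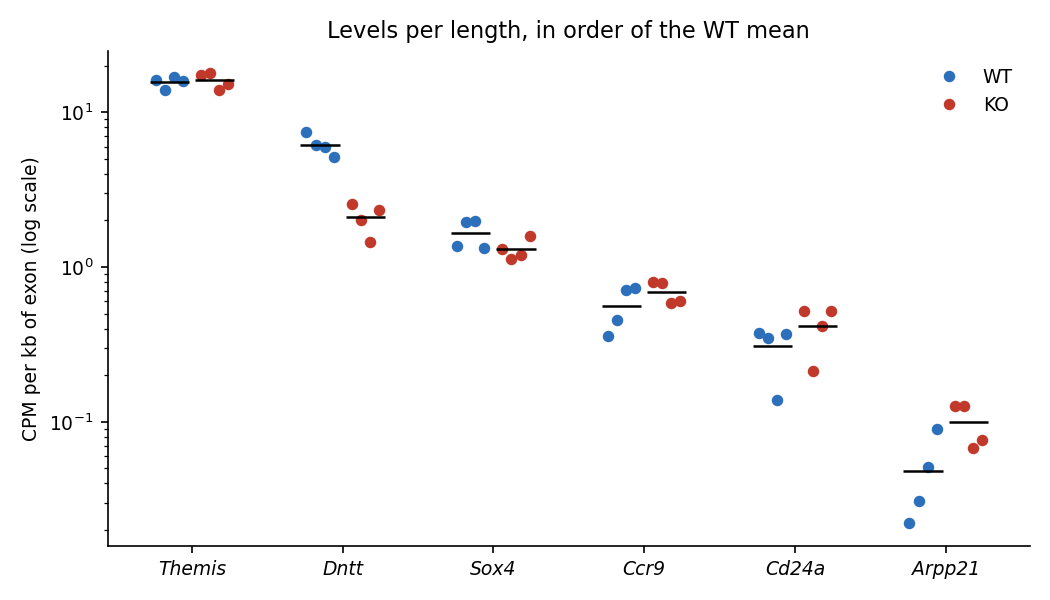
Levels in CPM per kb of exon (log axis) for the 6 detected genes, ordered by the WT mean. Points are libraries (4 WT in blue, 4 KO in red) and bars are group means. Dntt stands apart from Sox4 in WT, at 6.19 against 1.66 CPM per kb, and next to it in KO, at 2.09 against 1.30.

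The genes whose profile over the 8 libraries was most like that of Dntt were sought among the 9548 tested genes whose mean reached 5 CPM, by the root mean square difference of log2 CPM after subtracting each gene's mean. The 5 nearest were Bambi-ps1 (difference 0.245), Gm14085 (0.247), Igsf23 (0.311), Adamts14 (0.344) and Gm11695 (0.351). Bambi-ps1 is a pseudogene, Igsf23 encodes an immunoglobulin superfamily protein and Adamts14 an extracellular protease. Their log2 fold changes were -1.19, -1.41, -1.03, -1.68 and -1.01, beside -1.55 for Dntt. In the WT libraries Bambi-ps1 (27.8, 24.9, 23.7 and 22.4 CPM) and Igsf23 (32.6, 31.2, 27.6 and 25.6 CPM) had the same order as Dntt, with Sample_2911_WT highest and Sample_2915_WT lowest. The other 3 did not: Gm14085 was lowest in Sample_2911_WT (193.4 CPM), and Adamts14 was highest in Sample_2915_WT (22.9 CPM), as Gm11695 was in Sample_2913_WT (9.01 CPM). In the KO libraries the lowest value of Dntt was in Sample_2909_KO, as were those of Gm14085 (69.9 CPM) and Gm11695 (3.46 CPM). The lowest values of Bambi-ps1 (9.43 CPM) and Igsf23 (13.4 CPM) were in Sample_2908_KO, and that of Adamts14 (5.37 CPM) in Sample_2907_KO. Likeness here is a description over 8 libraries that differ in group, so a fall of like size by itself brings a gene near.

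**Figure D4:**
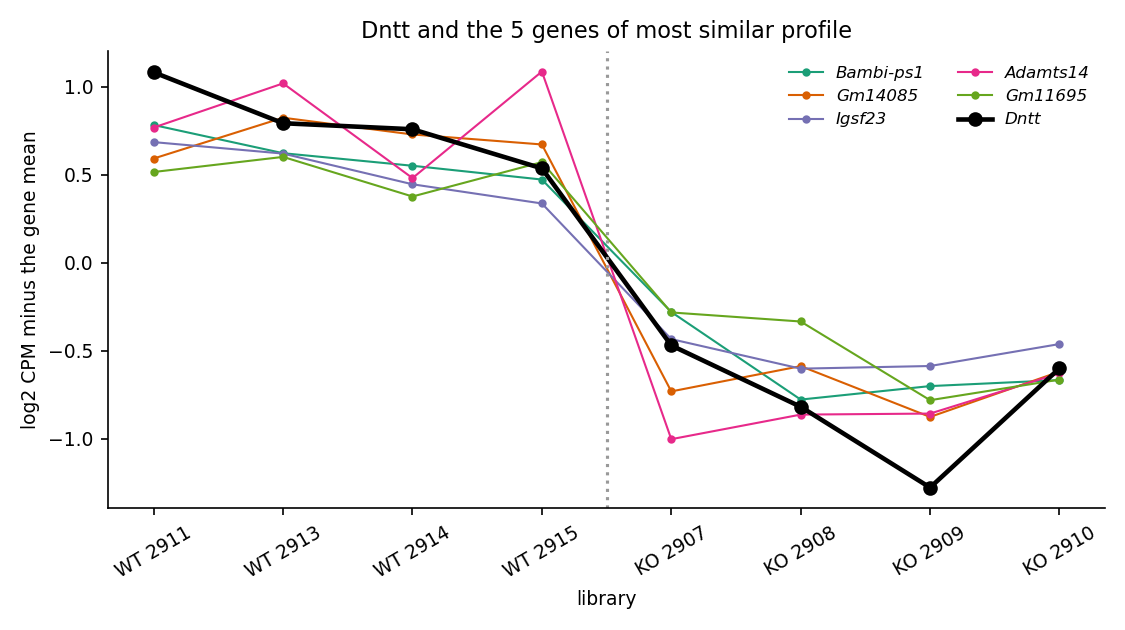
Profiles of Dntt (thick black line) and the 5 genes nearest to it, as log2 CPM minus each gene's mean over the 8 libraries. Libraries have no order within a group and lines serve only to follow a gene. Every one of the 6 genes lies above its mean in the 4 WT libraries and below it in the 4 KO libraries.

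The neighbourhood of Dntt was read from the 3 nearest tested genes on each side. Dntt lies on chromosome 19 (mm10, 41029275 to 41059525, plus strand), and none of these 6 genes passed the threshold. The nearest were Zfp518a, 111.0 kb away on the lower side, with a log2 fold change of -0.17 (SE 0.074, edgeR adjusted p = 0.198), and Tm9sf3, 151.0 kb away on the upper side, with -0.03 (SE 0.056, adjusted p = 0.876). Ccnj, Tctn3, Lcor and Gm340 had log2 fold changes from -0.17 to 0.14. Zfp518a passed without Sample_2908_KO (adjusted p = 0.0431). Around Rag1 and Rag2, Traf6 at 28.9 kb had -0.07 (SE 0.063, adjusted p = 0.599), and none of the 6 genes passed. The noncoding gene Gm13919, 390.0 kb from the Rag genes, had -1.42 (SE 0.448) and an adjusted p of 0.0532, and passed without Sample_2910_KO (0.0237).

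Among 16 tested genes of V(D)J end joining, cofactors of the recombinase and partners of TdT, 1 was called lower and 0 higher. Of all tested genes 2.41% were called lower and 3.98% higher. The count was 1 higher (Hmgb2) and 0 lower with limma-voom and without Sample_2911_WT. The gene called lower was Xrcc4, the partner of DNA ligase IV, at 11.6 ± 2.01 CPM (KO) against 17.8 ± 3.68 CPM (WT) (SD, n = 4 per group; log2 fold change -0.58, SE 0.159, edgeR adjusted p = 0.0208). Xrcc4 lost its call with limma-voom (adjusted p = 0.0811) and without Sample_2907_KO (adjusted p = 0.0933), Sample_2909_KO (0.0712), Sample_2911_WT (0.0838) or Sample_2913_WT (0.0699). Its partner Lig4 had -0.17 (adjusted p = 0.526), and Prkdc, the catalytic kinase of end joining, -0.03 (0.848). The polymerases most related to TdT, Polm and Poll, had 0.17 (0.242) and -0.16 (0.513). Dnttip1 and Dnttip2, whose products bind TdT, had -0.13 (0.627) and -0.01 (0.953). Hmgb2, a DNA-bending cofactor of the recombinase, had 0.34 (SE 0.108, edgeR adjusted p = 0.0582). Hmgb2 passed with limma-voom (0.0498), with no count filter (0.0386), without Sample_2908_KO (0.0407) and without Sample_2911_WT (0.0149). The list's median log2 fold change was -0.02, and that of all tested genes -0.0005.

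Families and partners of the 8 genes held 0 calls among 11 tested genes by edgeR (3 at an unadjusted p under 0.05, and 0 calls by DESeq2). By edgeR 6.39% of all tested genes were called. Ptpn6, the phosphatase SHP-1 that THEMIS regulates, had a log2 fold change of 0.18 (SE 0.060, edgeR adjusted p = 0.0818) and passed without Sample_2908_KO (0.0274). Grb2, the adaptor bound by THEMIS, had 0.13 (0.228). R3hdm1 and R3hdm2, relatives of Arpp21, had -0.02 and 0.05, and Sox12, a close relative of Sox4, -0.04. Themis2 had 17 reads in KO and 28 in WT and was not tested.

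Genes of CD4+CD8+ thymocytes were partly undetected. Of 15 genes in this list, 2 had 0 reads in every library (Ptcra, the pre-T cell receptor alpha chain, and Hes1), and 9 were tested, with 2 called higher and 1 lower, beside 3.98% and 2.41% of all tested genes. Dtx1 (log2 fold change 0.41, SE 0.087, edgeR adjusted p = 0.00946) and Notch1 (0.25, SE 0.069, 0.0283) rose, both of the Notch pathway. Mns1 fell (-1.02, SE 0.299, 0.0376), at 3.11 ± 0.49 CPM (KO) against 6.57 ± 3.55 CPM (WT; SD, n = 4 per group). Over the 18 alternatives the log2 fold change ran from -1.24 to -0.66 for Mns1 and from 0.20 to 0.30 for Notch1, with no change of sign. Mns1 lost its call without any 1 of the 4 KO libraries (adjusted p 0.0635, 0.0714, 0.123 and 0.0875), without Sample_2911_WT (0.188) or Sample_2915_WT (0.0988). Notch1 lost it without Sample_2907_KO (0.119), Sample_2909_KO (0.11) or Sample_2910_KO (0.0745) or Sample_2914_WT (0.109) or Sample_2915_WT (0.118), and Dtx1 without Sample_2909_KO (0.0683). Reads of Cd8a, the CD8 alpha chain, numbered 10 (KO) and 18 (WT). Those of Cd8b1, the CD8 beta chain, numbered 413 (KO) and 725 (WT), with a log2 fold change of -0.41 (SE 0.150, edgeR adjusted p = 0.1125).

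Genes induced around positive selection had 4 called higher and 1 lower of 14 tested, beside 3.98% of all tested genes called higher and 2.41% lower. Cd69, which retains cells in the thymus until it is lost, rose (log2 fold change 0.73, SE 0.072, edgeR adjusted p = 1.65e-08), at 110.3 ± 7.94 against 66.3 ± 5.14 CPM (SD, n = 4 per group). The survival gene Bcl2 (0.44, 1.08e-05), the lineage factor Gata3 (0.35, 0.00268) and Nab2 (0.37, 0.0254) rose as well. Ccr7, the lymph node homing receptor, fell (-0.19, 0.0221). Tox, a thymocyte selection factor, had 0.09 (0.581). Nab2 was no longer called without Sample_2915_WT (0.123), Sample_2914_WT (0.0985), Sample_2910_KO (0.0975) or Sample_2909_KO (0.103), and Ccr7 without Sample_2907_KO (0.0635), Sample_2913_WT (0.0867) or Sample_2915_WT (0.104).

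Markers that naive T cells gain as they mature had 7 of 14 tested genes called higher and 0 lower (3.98% and 2.41% of all tested genes), with a median log2 fold change of 0.28. This list was drawn up with earlier results for several of its genes known, and its count is not independent evidence of a direction. Il7r, the IL-7 receptor alpha chain, was at 1339 ± 194.9 CPM (KO) against 803.5 ± 111.8 CPM (WT) (SD, n = 4 per group; log2 fold change 0.74, SE 0.138, edgeR adjusted p = 0.0245). H2-Q6 of the Qa-2 family (0.42, SE 0.069, 0.000336), Ly6a (0.80, SE 0.124, 0.00449), Bcl2 and the complement regulator Cd55 (0.36, SE 0.069, 0.000881) rose. Ly6c2 rose from a low level (5.43 ± 2.18 against 2.29 ± 0.94 CPM; 2.33-fold, 0.019). H2-Q6 and H2-Q7, and likewise Ly6c1 and Ly6c2, are near-identical copies whose reads may be shared. H2-Q7 (adjusted p = 0.0727) and H2-Q4 were not called, although H2-Q7 passed with no count filter (0.00358) and without Sample_2913_WT (0.0342). Ly6c1 was at 76.7 ± 4.86 CPM (KO) against 85.0 ± 8.48 CPM (WT). Several of these genes, such as Ly6a, are also known to respond to interferon.

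In single-library omissions, Il7r lost its call without Sample_2907_KO (adjusted p = 0.0556), Sample_2908_KO (0.0658), Sample_2911_WT (0.0655) or Sample_2914_WT (0.0837). Ly6c2 lost it without Sample_2909_KO (0.0886), Sample_2910_KO (0.0872), Sample_2913_WT (0.07) or Sample_2915_WT (0.0881). Among 6 tested markers of recent emigrants 1 was called, Cd52, which fell (log2 fold change -0.41, SE 0.053, edgeR adjusted p = 2.26e-06; 425.9 ± 10.8 against 567.3 ± 31.4 CPM). The shares of all tested genes were 3.98% called higher and 2.41% called lower. Btla, an inhibitory receptor, had -0.25 (SE 0.081, adjusted p = 0.0865) and passed with no count filter (0.00297), without Sample_2911_WT (0.0039) and without Sample_2911_WT and Sample_2914_WT together (0.0216). Cd38, with 44 reads in KO and 19 in WT, did not pass the filter on low counts. It was called higher by limma-trend on the normalized values. With no count filter edgeR tested all 9 genes of the list, Cd38 included, and called 0 higher. Itgae, the CD103 integrin chain, had 33 reads in KO and 44 in WT (log2 fold change -0.09). Pecam1, Cr1l and Dusp10 had -0.02, 0.10 and 0.04 (edgeR adjusted p 0.896, 0.499 and 0.840). The median log2 fold change of the tested emigrant markers was -0.06. Factors needed for maturation after the thymus (Nkap, Hdac3, Zfp335, Bptf, Dnmt1, Foxo1 and Klf2) had 0 of 7 called by edgeR, 1 at an unadjusted p under 0.05 and 0 by DESeq2. By edgeR 6.39% of all tested genes were called. Klf2 passed with no count filter (0.00132) and without Sample_2908_KO (0.00218).

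**Figure D5:**
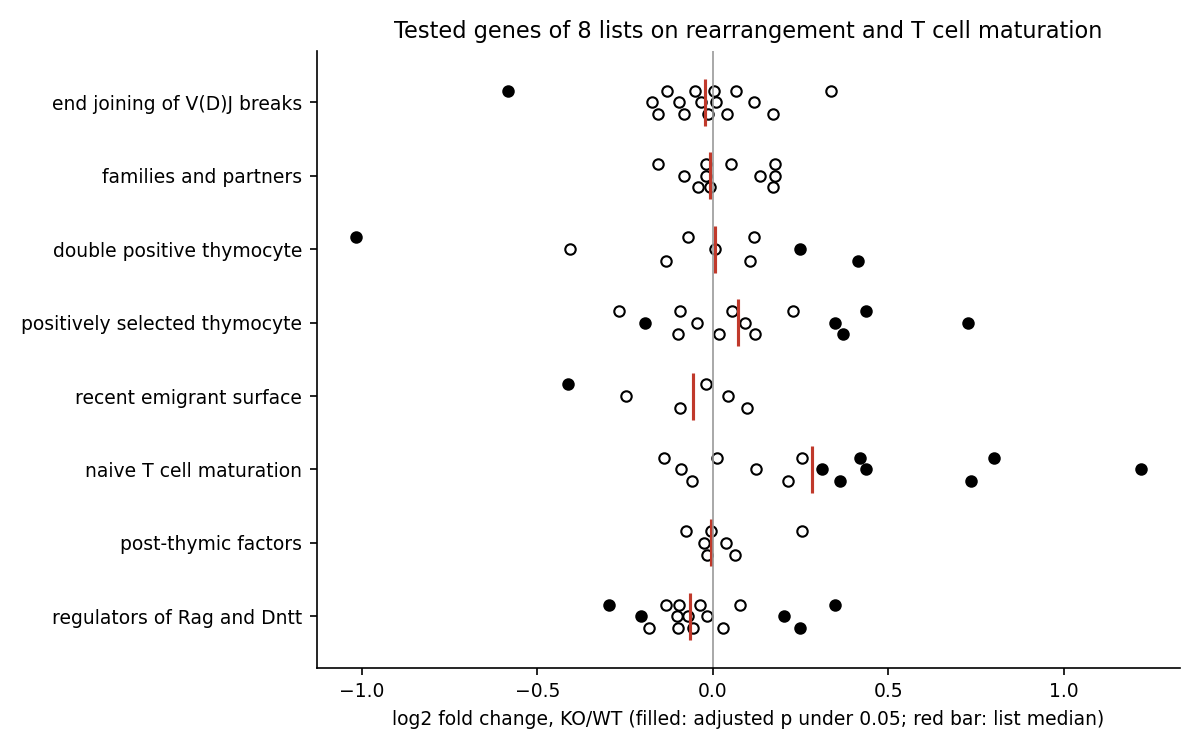
Log2 fold changes, KO relative to WT, of the tested genes in 8 gene lists (rows), with filled points for genes past the edgeR threshold and a red bar at each list's median. The list of naive T cell maturation markers holds 7 filled points, all right of 0, and its median is 0.28. In the end joining list Xrcc4 stands alone on the left at -0.58.

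Regulators of Rag and Dntt transcription had 3 called higher and 2 lower of 16 tested, beside 3.98% and 2.41% of all tested genes. Without Sample_2911_WT and Sample_2914_WT together the count was 0 higher and 1 lower, with Ikzf1 at an adjusted p of 0.0948, Gata3 at 0.0549, Ikzf3 at 0.115 and Fli1 at 0.107. Tcf7, which encodes TCF-1, fell (log2 fold change -0.29, SE 0.053, edgeR adjusted p = 0.000291), as did Ikzf1, which encodes the Dntt promoter-binding factor Ikaros (-0.21, SE 0.050, 0.00892). Gata3, Ikzf3 (0.25, SE 0.060, 0.00789) and Fli1 (0.20, SE 0.063, 0.0492) rose. Tcf3 and Tcf12, which encode E proteins, had -0.10 (0.501) and -0.07 (0.61). Elf1, an ETS factor, had -0.04 (0.80). The call of Fli1 was lost in 14 of 18 alternatives, DESeq2 among them (adjusted p = 0.0542). Ikzf3 reached 0.0518 without Sample_2915_WT and 0.05 without Sample_2910_KO. Ikzf1 stood at 0.867 and Tcf7 at 0.815 times the WT level, and Dntt at 0.341 times. The part of these regulators in the level of Dntt was not tested.

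Markers of other cells that express some of the 8 genes were read in the same libraries. B cell markers (8 of 8 with reads) summed to 359.8 to 415.1 CPM in KO and 446.0 to 485.2 CPM in WT, lower in KO as Dntt was. Nearly all of that was Ighm, at 381.6 ± 22.0 CPM (KO) against 460.4 ± 16.2 CPM (WT) (log2 fold change -0.27, edgeR adjusted p = 0.00132), while Ms4a1 had 3 reads in KO and 0 in WT and Pax5 1 and 0. The B cell receptor chain genes Cd79a (84 reads in KO and 106 in WT), Cd79b (49 and 37) and Ighd (91 and 164) were detected and not called, with log2 fold changes of -0.01, 0.77 and -0.48 (edgeR adjusted p 0.991, 0.404 and 0.418). Plasmacytoid dendritic cell markers (7 of 7 with reads) summed to 84.3 to 101.9 CPM in KO and 105.8 to 115.5 CPM in WT. Pacsin1 made up most of it (85.4 ± 7.80 against 102.7 ± 5.06 CPM, log2 fold change -0.27, adjusted p = 0.0151), whereas Siglech had 2 reads in KO and 1 in WT. Pacsin1 lost its call without Sample_2907_KO (0.0833) or Sample_2913_WT (0.0638). Tcf4, a plasmacytoid factor also found in other cells, was at 5.90 ± 0.22 CPM (KO) against 6.50 ± 1.01 CPM (WT; log2 fold change -0.12, adjusted p = 0.823). Of both lists some markers were thus detected in each group and others were at or near 0, and the part of these cells in the level of Dntt was not tested.

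CD8 T cell markers (both with reads) summed to 9.65 to 14.7 CPM in KO and 13.2 to 18.2 CPM in WT. Nearly all of that was Cd8b1, at 12.05 ± 2.11 CPM (KO) against 16.06 ± 2.18 CPM (WT). Pro-B and pre-B cell markers (7 of 8 with reads, Vpreb2 at 0) summed to 5.25 to 7.46 CPM in KO and 3.97 to 5.80 CPM in WT. Most of that was Il2ra, at 5.31 ± 0.93 CPM (KO) against 4.01 ± 0.71 CPM (WT; log2 fold change 0.41, edgeR adjusted p = 0.392). Vpreb1 had 19 reads in KO and 5 in WT (0.37 to 0.66 CPM against 0 to 0.18 CPM). Vpreb3 had 9 and 12 reads, Cd93 11 and 15, Ebf1 3 and 2, Igll1 0 and 2, and Erg 0 and 1. Of this list only Il2ra passed the filter on low counts. Myeloid markers (8 of 10 with reads, S100a8 and S100a9 at 0) reached at most 23.0 CPM in KO and ranged from 9.36 to 38.6 CPM in WT. Erythroid markers stayed at or below 0.865 CPM in every library, with Hbb-bs and Hbb-bt at 0. Gamma delta T and NK cell markers summed to 14.41 to 21.94 CPM in KO and 10.99 to 15.05 CPM in WT. Among them Trdc rose (15.1 ± 3.41 against 9.95 ± 2.46 CPM, log2 fold change 0.60, edgeR adjusted p = 0.0426). Trdc lost its call with limma-voom (0.121) and with the non-robust fit (0.0713). It also lost it without Sample_2908_KO (0.0862), Sample_2909_KO (0.178) or Sample_2910_KO (0.0724) or Sample_2913_WT (0.134) or Sample_2915_WT (0.174). Klrk1 did not change (82 reads in KO and 109 in WT, log2 fold change -0.005, edgeR adjusted p = 0.997). Tcrg-C1 had 16 and 15 reads, Klrb1c 4 and 5, and Ncr1 3 and 4. The part of these cells in the values of the 8 genes was not tested.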

How the data were processed

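The authors deposited raw counts per gene for 53465 Ensembl IDs and a normalized signal table of 16418 genes, in which every value is the count over 1 size factor per sample and every gene has at least 10 reads in all. The submitters' processing notes name build mm10, CASAVA 1.8.2 and FastQC, and for the tables DESeq2 1.22.2 under R 3.5.3. Aligner, counter and use of strand: not given in the sources used here. Positions and exon lengths came from GENCODE M21 (GRCm38), which held 99.8% of the IDs.

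The main test was the quasi-likelihood F test of edgeR 4.0.16 (robust, TMM factors, filterByExpr) in R 4.3.3, with Benjamini-Hochberg adjustment over the 11772 genes kept. SE was derived from F as |log2 fold change|/sqrt(F). The script was checked on simulated counts. Alternatives were DESeq2, limma-voom, limma-trend, other scalings and filters, and libraries left out. The 8 genes and 16 gene lists were chosen with earlier results of these data known. Genes named beyond the 8 are Satb1, up to 4 changed genes of lowest adjusted p per list and those needed to say how a list stands, the 5 profiles nearest Dntt, 3 tested neighbours on each side, and markers of other cells. Upstream windows came from RefSeq, which matched 7 of the 8 genes. Results for a few genes of the lists are not reported here.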

Additional observations from a re-analysis of the deposited data

Results flagged for a closer look

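Cd24a in Sample_2914_WT stood apart from the other WT libraries, at 0.357 CPM from 8 reads, where the other 3 had 0.90 to 0.97 CPM. The gap to the nearest library was 0.895 of the range of the 4, above the critical value of 0.829. Chance flags about 1 in 20 such groups, and 14 groups of 4 libraries were examined.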

How the results depend on the processing

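No paired analysis was possible because KO and WT libraries share no sample number. Of the alternatives, 16 were planned. The 2 added after seeing the data thinned every library to the smallest or left out Sample_2911_WT and Sample_2914_WT together. Leaving single libraries out of the Cd24a ratio was likewise added after seeing the data. Dntt stayed past the threshold in all 18, and Sox4, Ccr9 and Themis short of it in all 18. Arpp21 was short of it in the 17 that tested it. The log2 fold change of Themis turned negative without Sample_2907_KO (-0.0099), Sample_2908_KO (-0.027) or Sample_2913_WT (-0.024). Over single libraries left out, values ranged from -1.67 to -1.41 for Dntt, 0.73 to 1.28 for Arpp21, -0.48 to -0.25 for Sox4, 0.09 to 0.36 for Ccr9 and -0.027 to 0.092 for Themis. The count of changed genes was 752, between 562 and 836 without 1 library, and 481 (323 higher and 158 lower) without Sample_2911_WT and Sample_2914_WT together. Of the 149 genes in the lists 25 were called, between 16 (without Sample_2907_KO) and 26 without 1 library, and 13 without that pair. Of all tested genes 6.39% were called, and not all of the 149 were tested. The lists were chosen with earlier results known, so this count only describes them. Among the 12 neighbours of Dntt and the Rag genes 0 were called by edgeR, and 0 to 1 without 1 library. The count was 1 with limma-voom, 1 without TMM, 1 with no count filter and 1 with limma-trend, each time Gm13919. Of the 5 profiles nearest Dntt, 3 remained when genes down to 1 CPM were let in, which widens the choice to 11749 genes. With pooled totals not scaled by TMM, the Cd24a ratio was 1.61, and between 1.1 and 1.95 without 1 library. Depth limits Cd24a, Arpp21, Rag1 and Rag2, of which the first 2 had 65 and 102 reads in all.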
